A study of Homo sapiens with 4 samples.

Results

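The 10 genes described here are the AP-1 subunits FOS, FOSL1, FOSL2, JUN, JUNB and JUND, the transcription factor EGR1 and the MAP kinase phosphatases DUSP1, DUSP6 and DUSP16. They were taken from the deposited table by gene symbol and are 10 of the 18650 loci that had fragments in at least 1 library. In the table, on GRCh38, FOS lies at chr14:75278774-75282230, EGR1 at chr5:138465490-138469315, DUSP1 at chr5:172768090-172771195 and JUND at chr19:18279760-18281622. AP-1 is a dimer of basic leucine zipper proteins that binds DNA, usually with a FOS family protein joined to a JUN family protein. FOS, JUN, JUNB and EGR1 are classical immediate-early genes, which are switched on within minutes of a growth factor or stress signal that runs through the MAP kinases ERK, JNK and p38. The DUSP enzymes remove phosphate from these kinases, and DUSP1 and DUSP6 are themselves switched on by the kinases they inactivate, which closes a negative feedback loop.

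Sturgeon chondroitin sulfate (SCS) is a sulfated glycosaminoglycan prepared from sturgeon. It was given at 100 μg/mL for 24 h to HT-29, a human colorectal cancer line, and to NCM460, a human colon epithelial line that served as the normal cell, and each line had a control without SCS. There was 1 library for each of these 4 conditions, so the fold changes have no replicate check, no test between conditions was made within a line, and intervals cover counting error only. The study cultured NCM460 in medium with more fetal bovine serum than HT-29, so line and serum cannot be told apart. In bulk RNA of this kind, fewer cells that make a transcript and less transcript per cell cannot be told apart.

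The libraries held between 1156568 and 1654764 fragments. Transcripts of the mitochondrial genome took 35.8% of the fragments in the HT-29 control and 13.8% with SCS, and 62.3% in the NCM460 control and 46.3% with SCS. The NCM460 libraries therefore had 507692 and 621582 nuclear fragments, against 1061700 and 1383424 in HT-29. Of 12 colon epithelial markers, 8 were above 3 fragments in both HT-29 libraries and 6 in both NCM460 libraries. KRT20, VIL1, LGALS4, CDH17, CDX1 and GPA33 were at 0 in both NCM460 libraries, and CDX1, CDX2 and GPA33 were at 0 in both HT-29 libraries. The whole list summed to 6526 CPM in the HT-29 control and 3535 CPM with SCS, and to 4346 and 2659 CPM in NCM460. The mesenchymal list of 9 genes summed to at most 10.4 CPM in HT-29 and to between 125 and 134 CPM in NCM460, with CDH2, COL1A2 and TWIST1 at 0 throughout. Of 5 blood cell markers, LYZ was present in HT-29 (295 and 146 CPM) and none was present in NCM460, and 3 endothelial markers summed to at most 1.85 CPM. The part of these shifts in the values below was not tested.

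The upstream sequences of 4 of the genes are given because they belong to the genes of the set with the largest falls in HT-29 (FOS, EGR1 and DUSP1) and to the only one called higher there (JUND). They come from RefSeq on GRCh38.p14, run 5′ to 3′ on the strand of the gene and end before its first base. They are chr14:75278578-75278773 for FOS (plus strand), chr5:138465229-138465478 for EGR1 (plus strand), chr5:172771196-172771445 for DUSP1 (minus strand) and chr19:18281623-18281872 for JUND (minus strand). Capitals mark the core TGACGT of the cAMP response element on either strand, the full palindrome TGACGTCA, which contains it, and in EGR1 the CArG box, the site of the serum response factor.
FOS: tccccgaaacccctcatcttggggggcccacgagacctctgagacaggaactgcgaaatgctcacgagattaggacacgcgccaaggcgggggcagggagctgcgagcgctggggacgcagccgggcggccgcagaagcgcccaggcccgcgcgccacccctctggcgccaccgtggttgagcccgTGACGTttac
EGR1: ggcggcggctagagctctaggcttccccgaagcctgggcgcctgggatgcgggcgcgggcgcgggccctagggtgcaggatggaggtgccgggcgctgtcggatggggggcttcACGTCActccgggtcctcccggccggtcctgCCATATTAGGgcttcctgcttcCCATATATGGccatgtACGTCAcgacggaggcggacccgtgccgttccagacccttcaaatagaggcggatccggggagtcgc
DUSP1: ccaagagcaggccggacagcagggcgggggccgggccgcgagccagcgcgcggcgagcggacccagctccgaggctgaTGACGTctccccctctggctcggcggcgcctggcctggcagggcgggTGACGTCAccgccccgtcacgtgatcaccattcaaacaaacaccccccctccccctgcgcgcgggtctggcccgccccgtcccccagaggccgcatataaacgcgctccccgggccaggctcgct
JUND: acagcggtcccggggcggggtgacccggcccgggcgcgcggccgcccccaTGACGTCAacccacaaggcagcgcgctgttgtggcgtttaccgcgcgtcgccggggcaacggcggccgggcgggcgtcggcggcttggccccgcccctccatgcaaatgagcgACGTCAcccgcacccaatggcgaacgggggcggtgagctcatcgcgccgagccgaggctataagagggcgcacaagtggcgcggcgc

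A promoter sequence was found for 9 of the 10 genes. In the 250 bases before the start RefSeq gives, TGACGT on either strand was found in 5 of these 9 (FOS, FOSL2, JUND, EGR1 and DUSP1) and in 7.10% of all 35116 promoters of the table. The palindrome TGACGTCA was found in JUND and DUSP1 and in 1.65% of all promoters. The CArG box occurred at 2 places in EGR1 and in 1.16% of all promoters. The consensus AP-1 site TGACTCA was in none of the 9 windows and in 4.20% of all promoters, and its variant TGACATCA was in JUN and in 2.37%. The windows of FOSL2, JUN and DUSP6 lie inside the gene as the deposited table bounds it, and that of FOS does in part, so the window before the table's start has 196 bases for FOS. These matches describe letters in the windows and were not measured as binding sites. Bases farther upstream were not searched, so a gene without a match here may hold the site outside its window.

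To compare SCS with control in HT-29, the fragments of each gene were expressed as CPM, counts relative to the library total, scaled by the trimmed mean of M values (TMM). A gene was called higher or lower where its fold change passed 1.5 and its 95% Clopper-Pearson interval excluded no change. In HT-29, 4 of the 10 genes were called lower (FOS, EGR1, DUSP1 and DUSP6), against a background of 14.8% of the 12168 loci compared. Of the other genes, 1 was called higher (JUND), against 16.8% of all loci. FOS and DUSP16 were also among the genes the study itself listed from these samples. All 10 genes were chosen with earlier results of these data known, so none of them is an independent choice.

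FOS, which binds DNA only as a partner of the JUN proteins, showed the largest change of the set in CPM. It had 575 fragments in the HT-29 control and 97 with SCS, or 281 CPM (95% Poisson interval 259 to 305) and 40.4 CPM (32.7 to 49.2). The log2 fold change was −2.76 (95% interval −3.13 to −2.49), a 6.78-fold lower level on this scale, and it stood at rank 47 from the lowest of the 12168 loci. EGR1, a zinc finger factor that is induced with FOS, stood at 331 CPM (677 fragments) in the control and 62.0 CPM (149 fragments) with SCS. Its log2 fold change was −2.39 (−2.68 to −2.16), with an interval that overlapped that of FOS. On the log2(FPKM + 1) scale the order was reversed, at −2.11 for FOS and −2.40 for EGR1. FOS and EGR1 were the first and second most abundant of the 10 genes per transcript length in the HT-29 control.

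Among the phosphatases, DUSP1, a nuclear enzyme that acts on JNK, p38 and ERK, had 141 CPM (288 fragments) in the HT-29 control and 42.4 CPM (102 fragments) with SCS. The log2 fold change was −1.70 (−2.07 to −1.40). DUSP6, the cytoplasmic phosphatase of ERK, went from 73.3 CPM (150 fragments) to 38.7 CPM (93 fragments), a log2 difference of −0.90 (−1.31 to −0.54). DUSP16, which acts mainly on JNK, was the lowest of the 10 genes in FPKM in both HT-29 libraries. It had 20.5 CPM (42 fragments) in the control and 29.96 CPM (72 fragments) with SCS, and its log2 fold change of 0.52 (−0.02 to 1.13) was not called. In FPKM it turned to −0.18 on the log2(FPKM + 1) scale (7.39 and 6.38 FPKM), so it has no direction here.

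The JUN family did not follow FOS in HT-29. JUND, the subunit that is present in resting cells and is little changed by serum, rose from 55.7 CPM (114 fragments) to 100.3 CPM (241 fragments), a log2 fold change of 0.83 (0.52 to 1.18). JUN stood at 181 CPM (370 fragments) in the control and 171 CPM (411 fragments) with SCS, a log2 difference of −0.08 (−0.29 to 0.13). JUNB was at 139 and 109 CPM (284 and 262 fragments), and its log2 fold change of −0.34 (−0.60 to −0.10) excluded 0 but did not pass 1.5-fold. The other FOS family genes were not called either. FOSL1 (FRA-1), with 69 and 72 fragments, had a log2 fold change of −0.16 (−0.67 to 0.33), and FOSL2 (FRA-2) had 143 and 174 fragments and 0.05 (−0.28 to 0.38).

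**Figure D1:**
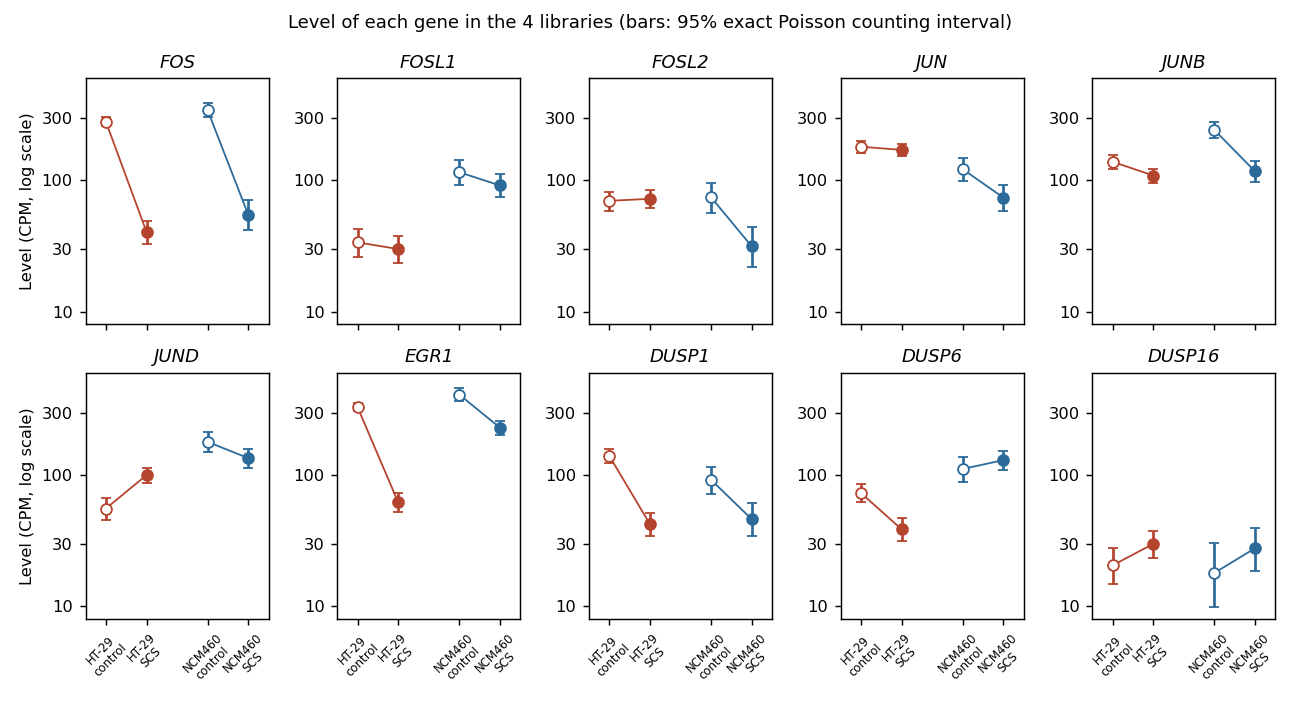
Level of each of the 10 genes in the 4 libraries in CPM on a log axis, with the control as an open point, SCS as a filled point and bars for the 95% exact Poisson counting interval of 1 library. FOS lay at 281 and 343 CPM in the controls and at 40.4 and 54.6 CPM with SCS, while EGR1 lay at 62.0 CPM in HT-29 with SCS and at 230 CPM in NCM460 with SCS.

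The same comparison in NCM460 gave 6 genes called lower (FOS, FOSL2, JUN, JUNB, EGR1 and DUSP1), against 13.8% of the 12657 loci compared, and 0 called higher, against 15.4%. In this line the fold change of a locus followed the GC content of its transcript, with a Spearman rho of −0.62 across 12600 loci, against −0.12 across 12106 loci in HT-29. Loci are not independent replicates, so no p is given for either. The transcripts of 8 of the 10 genes were richer in GC (52.6% to 69.7%) than the median locus of 49.1%, the exceptions being DUSP6 (46.7%) and DUSP16 (47.1%). Once a lowess trend of fold change on GC content had been removed, 2 of the 10 genes were called lower in NCM460 (FOS and FOSL2), against 6.43% of loci, and 0 higher, against 5.77%. The NCM460 fold changes with SCS are therefore given both ways.

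FOS had 267 fragments in the NCM460 control and 59 with SCS, or 343 CPM (303 to 387) and 54.6 CPM (41.5 to 70.4). The log2 fold change was −2.62 (−3.08 to −2.24), and −2.31 (−2.77 to −1.93) after the GC trend was subtracted. Before that subtraction it stood at rank 18 from the lowest of the 12657 loci. FOSL2 was at 74.5 CPM (58 fragments) and 31.4 CPM (34 fragments). Its log2 fold changes were −1.21 (−1.90 to −0.61) and, after the subtraction, −0.85 (−1.53 to −0.24). It was not called with scaling by total counts alone, at −0.53. FOSL1 had 90 and 99 fragments, and its log2 fold change went from −0.33 (−0.76 to 0.09) to 0.33 (−0.10 to 0.76) with the subtraction, so it has no direction here.

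EGR1 stood in NCM460 at 412 CPM (321 fragments) in the control and 230 CPM (249 fragments) with SCS. Its log2 fold change of −0.84 (−1.08 to −0.60) became −0.35 (−0.60 to −0.11) after the GC trend was subtracted and was no longer called. DUSP1 also lost its call, at 92.4 and 46.2 CPM (72 and 50 fragments), with −0.98 (−1.55 to −0.46) before and −0.51 (−1.08 to 0.02) after the subtraction. JUN, at 122 and 74.0 CPM (95 and 80 fragments), had a log2 fold change of −0.71 (−1.17 to −0.28) before and −0.16 (−0.62 to 0.27) after. JUNB, at 243 and 117 CPM (189 and 127 fragments), had −1.04 (−1.38 to −0.72) before and −0.31 (−0.66 to 0.01) after. Scaling by total counts alone also ended the call of each of these 4 genes.

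The remaining NCM460 genes were not called. JUND was at 180 and 135 CPM (140 and 146 fragments), and its log2 fold change of −0.41 (−0.76 to −0.07) turned to 0.33 (−0.01 to 0.68) after the GC trend was subtracted. DUSP6 was at 112 and 130 CPM (87 and 141 fragments), with 0.22 (−0.17 to 0.63) before and −0.08 (−0.47 to 0.33) after. DUSP16 rested on 14 and 30 fragments, with 0.59 (−0.33 to 1.66) before and 0.34 (−0.59 to 1.40) after. With total counts alone, DUSP6 and DUSP16 were called higher in NCM460, at 0.90 and 1.21, as were 32.6% of loci, and FOS was the gene called lower, as were 2.05% of loci.

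**Figure D2:**
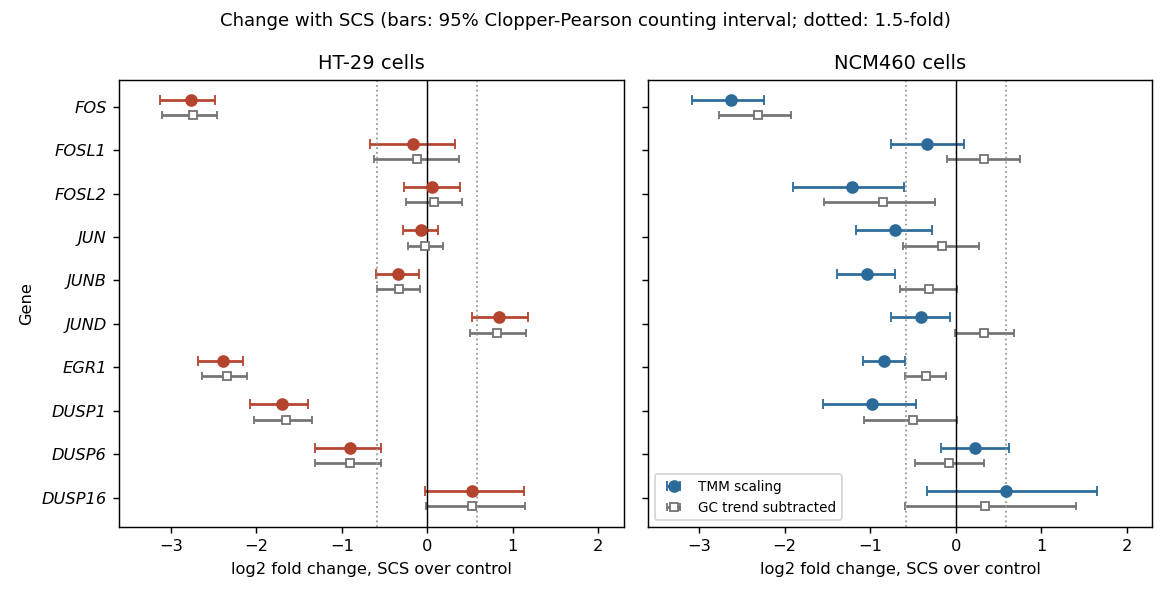
Log2 fold change of each gene with SCS over control in HT-29 (left) and NCM460 (right), as scaled by TMM (filled circles) and after a trend on GC content was subtracted (open squares), with 95% Clopper-Pearson counting intervals and dotted lines at 1.5-fold. FOS lay below −2.3 in both lines under both treatments of the values, while the open squares of EGR1, DUSP1, JUN and JUNB in NCM460 lie inside the dotted lines.

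**Figure D3:**
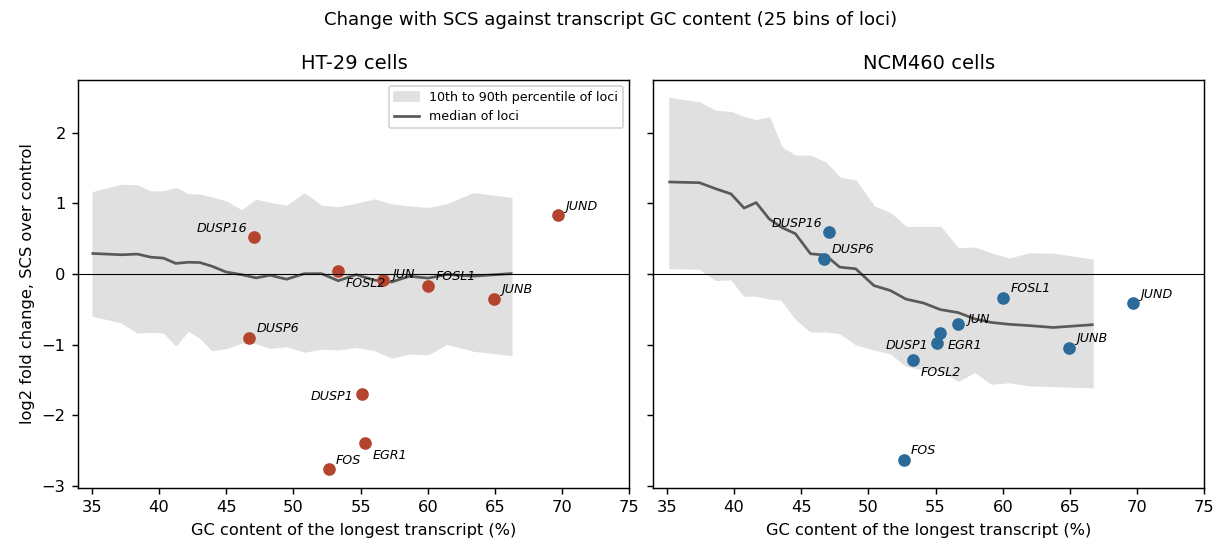
Log2 fold change with SCS against the GC content of the longest transcript in HT-29 (left) and NCM460 (right), with the median of all loci in 25 bins as a line, their 10th to 90th percentile as a grey band and the 10 genes as points. In NCM460 the line falls as GC content rises, and all of the 10 genes except FOS lie inside the band or beyond its last bin. In HT-29 the line is nearly flat, and FOS, EGR1 and DUSP1 lie below the band.

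FOS, EGR1 and DUSP1 were called lower in both lines, which is 3 of the 10 genes, against 3.36% of the 10849 loci compared in both. After the GC trend was subtracted this held for FOS alone, against 1.67% of 10808 loci. Across the 8 alternative scalings and estimates in each line, FOS was called lower in all 8, with log2 fold changes from −3.05 to −2.11 in HT-29 and from −2.91 to −1.93 in NCM460. One of the alternatives, FPKM, was called at 1.5-fold without an interval. An SCS effect common to HT-29 and NCM460 was fitted in edgeR with the cell line as a term, which takes the lines as the replicates and leaves 1 residual degree of freedom. In this quasi-likelihood fit FOS had a log2 fold change of −2.74 and a Benjamini-Hochberg adjusted p of 0.00706 over 12942 loci. FOS had the fourth smallest p of the 9 loci that passed 0.05, of which 5 were lower (0.0386% of loci) and 4 higher (0.0309%). Passing did not require a change in both lines. CLEC3A and CLDN2 also passed as lower, with log2 fold changes of −4.69 and −5.71 in HT-29 but 0 and 0.29 in NCM460. EGR1 (−1.64, edgeR adjusted p = 0.493) and DUSP1 (−1.39, edgeR adjusted p = 0.80) did not pass, and the edgeR adjusted p of the other 7 genes was at least 0.988. DESeq2 passed FOS (adjusted p = 5.3e-06) and also EGR1 (adjusted p = 0.0421), and gave DUSP1 an adjusted p of 0.354, with 0.727% of its 1651 loci lower and 0.909% higher.

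The lines differed in the size of the change. The HT-29 change minus the NCM460 change was −0.14 for FOS (95% counting interval −0.65 to 0.37), so FOS changed by amounts that counting error does not separate. For EGR1 the difference was −1.56 (−1.91 to −1.21), and −1.99 (−2.34 to −1.64) after the GC trend was subtracted in each line. DUSP1 differed by −0.72 (−1.33 to −0.11), and by −1.15 (−1.76 to −0.53) after the subtraction, and DUSP6 by −1.12 (−1.66 to −0.58) and −0.82 (−1.36 to −0.28). EGR1, DUSP1 and DUSP6 thus changed further downward in HT-29 with and without the GC trend. JUND differed in the other direction, by 1.24 (0.78 to 1.71) and 0.48 (0.01 to 0.94), and so did FOSL2, by 1.26 (0.57 to 1.95) and 0.93 (0.24 to 1.62). The differences of JUN (0.63) and JUNB (0.69) were within counting error after the subtraction, at 0.14 (−0.34 to 0.61) and −0.02 (−0.42 to 0.39). With 1 library per condition, these intervals compare libraries and do not test the lines, whose serum also differed.

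Between the controls, NCM460 had more FOSL1 (3.34-fold), JUND (3.18-fold), JUNB (1.74-fold) and DUSP6 (1.51-fold) than HT-29 in CPM. No GC trend was subtracted from these ratios between the lines, and the serum of the lines differed. JUN and DUSP1 were lower in NCM460, at 0.677 and 0.660 of the HT-29 level. FOS and EGR1 differed by 1.22-fold and 1.24-fold between the controls. With SCS, EGR1 was 3.66-fold and DUSP6 3.29-fold higher in NCM460 than in HT-29, while the FOS levels of 40.4 and 54.6 CPM had overlapping intervals. FOSL1 was then at 2.97-fold, JUND at 1.34-fold and JUNB at 1.08-fold the HT-29 level, and the interval of JUNB included no difference.

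Levels of different genes of the set were compared in FPKM, the deposited unit that divides by transcript length. In both controls FOS was the most abundant of the 10 genes, at 136 FPKM in HT-29 and 242 FPKM in NCM460. With SCS, JUND was the most abundant in both lines, at 88.3 and 108 FPKM, and FOS was at 30.9 FPKM in HT-29, behind the JUN genes, and at 31.2 FPKM in NCM460. EGR1 followed FOS in the HT-29 control at 93.6 FPKM and was at 16.97 FPKM with SCS, whereas in NCM460 it was at 114 FPKM and then, next to JUND, at 61.9 FPKM. Neighbours in this order such as DUSP1 (73.3) and JUNB (74.6) in the HT-29 control, or DUSP6 (56.8) and JUNB (56.5) in NCM460 with SCS, differ too little to be ranked from 1 library.

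Among FOS, FOSL1 and FOSL2, FOS made up less of the sum with SCS in both lines. It was 84.3% of the summed FPKM of FOS, FOSL1 and FOSL2 in the HT-29 control and 58.2% with SCS, while their sum went from 162 to 53.1 FPKM. In NCM460 the share of FOS went from 78.9% to 42.2% and the sum from 307 to 73.9 FPKM. With FOSB, which is not one of the 10 genes, counted in, FOS was 39.6% of the sum in the HT-29 control and 39.3% with SCS, and 55.2% and 29.5% in NCM460. Without FOSB, FOSL1 held the larger share in NCM460 with SCS, at 50.8%, although its own FPKM was 50.4 in the control and 37.6 with SCS. JUND made up 27.2% of the JUN family in the HT-29 control and 47.0% with SCS, and 49.1% and 57.4% in NCM460. The JUN family sum was 185 and 188 FPKM in HT-29 and 338 and 188 FPKM in NCM460. FPKM put the median log2 fold change of all NCM460 loci at −0.27. None of the JUN family genes was called in NCM460 after the GC trend was subtracted, so the lower sum there depends on the processing. Of the 3 phosphatases, DUSP1 held 72.7% in the HT-29 control and 51.2% with SCS, and in NCM460 DUSP6 went from 47.2% to 65.0%.

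**Figure D4:**
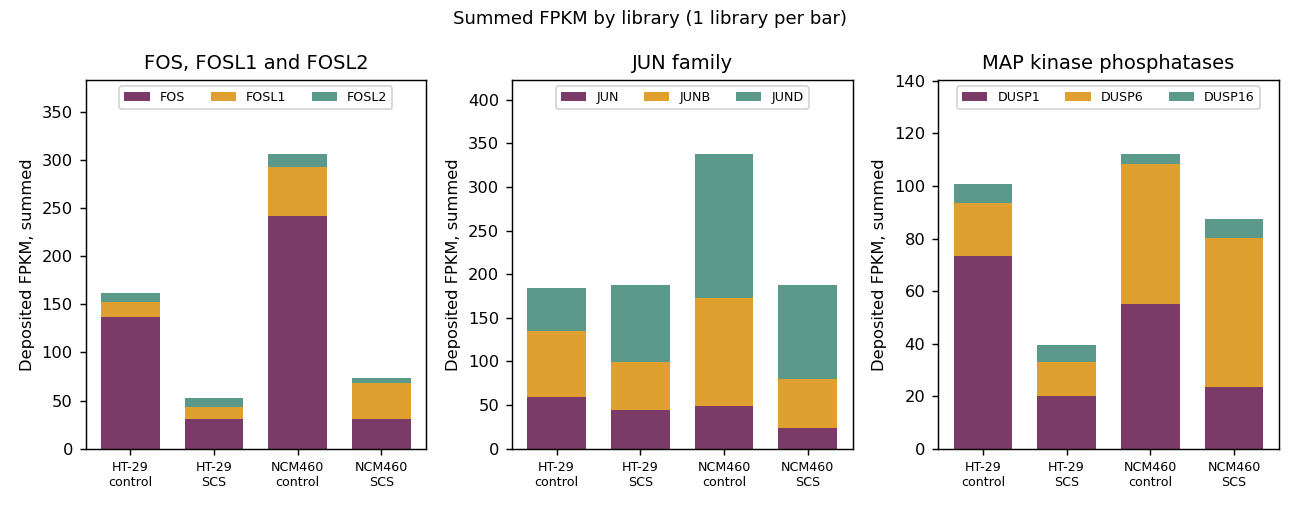
Summed deposited FPKM of FOS, FOSL1 and FOSL2, of the JUN family and of the 3 MAP kinase phosphatases in each of the 4 libraries, 1 library per bar, with each gene as a coloured part. The bars of the first panel, which leaves out FOSB, are 162 and 53.1 FPKM high in HT-29 and 307 and 73.9 FPKM in NCM460, and most of the lost height is FOS.

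The other genes of the pathway were taken as lists and described by counts called and by the median log2 fold change, beside a median over all loci of 0.07 in HT-29 and 0.03 in NCM460. Over all loci, 16.8% were called higher and 14.8% lower in HT-29, and 15.4% and 13.8% in NCM460. Of the other basic leucine zipper genes of AP-1, 9 were compared in HT-29, of which 5 were called higher and 1 lower, and 10 in NCM460, of which 0 were called higher and 2 lower. FOSB, the closest relative of FOS, was the gene lower in both lines. It had 1453 and 175 fragments in HT-29 (log2 fold change −3.26, −3.52 to −3.06) and 272 and 103 in NCM460 (−1.86, −2.22 to −1.54). In NCM460 FOSB was still called after the GC trend was subtracted, at −1.27 (−1.63 to −0.95). The shared edgeR fit gave FOSB an adjusted p of 0.00956. ATF2, a partner of JUN, had 59 and 153 fragments in HT-29 (1.11, 0.70 to 1.60), and MAFF, a small MAF protein, had 67 and 159 (0.99, 0.59 to 1.45). The median of the list in HT-29 was 0.94, but 0.14 in FPKM and 0.60 with no filter on low values, and thinning left 3 called higher. In NCM460 the median was −0.78, or −0.16 with total counts alone, and MAFK was at −0.98 (−1.96 to −0.14) before and −0.27 after the GC trend was subtracted.

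Of the other immediate-early genes, 9 of 22 in HT-29 were called lower and 3 higher, with a median of −0.37, and 9 of 24 in NCM460 were called lower and 1 higher, with a median of −0.65 (−0.56 without genes at 0 in a library). With total counts alone the NCM460 median was 0.13. CYR61 and CTGF, matricellular proteins induced by serum, were lower in both lines, and KLF10 and NR4A1 completed the 4 of 22 genes called lower in both, against 3.36% of loci. CYR61 had 87 and 12 fragments in HT-29 (−2.81, −4.10 to −2.21) and 56 and 43 in NCM460 (−0.83, −1.46 to −0.26). CTGF had 43 and 4 fragments in HT-29 (−2.93, −5.60 to −2.20) and 21 and 12 in NCM460 (−1.19, −2.44 to −0.19). After the GC trend was subtracted, 7 of 24 were called lower in NCM460. CYR61 (−0.73) and KLF10 (−1.01) were among them, and CTGF (−0.98, −2.22 to 0.02) and NR4A1 (−0.57, −1.23 to 0.02) were not. GADD45B, a stress sensor upstream of p38 and JNK, went the other way in HT-29, from 5 to 35 fragments (2.09, 1.22 to 4.28). MCL1, a survival protein of the BCL2 family, had 39 and 153 fragments in NCM460 (1.48, 0.98 to 2.04), at a locus it shares with an antisense gene.

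PPP1R15A (GADD34), which restores translation after stress, was called in opposite directions. It had 545 and 1145 fragments in HT-29 (0.84, 0.69 to 0.99) and 87 and 37 in NCM460 (−1.67, −2.30 to −1.14), and the NCM460 value was −1.04 (−1.67 to −0.51) after the GC trend was subtracted. EGR3, a relative of EGR1, had 8 and 2 fragments in NCM460 with an interval of −5.75 to −0.15. SGK1, a kinase induced by serum, and MYC were chosen after their values were seen. SGK1 had 276 and 56 fragments in HT-29 (−2.47, −2.97 to −2.11) and 14 in each NCM460 library (−0.44, −1.65 to 0.70, or −1.42, −2.63 to −0.28, after the GC trend was subtracted), and MYC had 278 and 197 fragments in HT-29 (−0.72, called lower) and 316 and 389 in NCM460 (−0.17, not called).

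The other MAP kinase phosphatases moved in both directions. In HT-29, 2 of 6 were called higher and 3 lower, with a median of −0.58, and in NCM460, 0 of 7 were called higher and 2 lower, with a median of −0.22. DUSP5, a nuclear phosphatase of ERK, had 124 and 340 fragments in HT-29 (1.21, 0.92 to 1.53), opposite to the related DUSP6. In NCM460 DUSP5 was at 243 and 276 CPM (0.19, −0.08 to 0.46), and after the GC trend was subtracted it was called higher (0.70, 0.43 to 0.97), the 1 of 7 then called higher. DUSP2, a nuclear phosphatase of ERK and p38, was called lower in both lines, with 26 and 7 fragments in HT-29 (−1.74, −3.57 to −0.88) and 19 and 6 in NCM460 (−1.91, −3.75 to −0.76). DUSP8, which acts on JNK, had 40 and 88 fragments in HT-29 (0.86, 0.35 to 1.48) and 13 and 3 in NCM460, with an interval of −5.04 to −0.73. DUSP7 had 38 and 24 fragments in HT-29 (−0.82, −1.70 to −0.12). Of the atypical dual specificity phosphatases, which lack the MAP kinase binding domain, 1 of 8 was called higher in HT-29 (DUSP22, 14 and 36 fragments) and 1 of 9 in NCM460 (DUSP11, 3 and 17 fragments, interval 0.24 to 4.44, not called after the GC trend was subtracted), and none lower.

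A list of ERK feedback genes, other ERK-linked genes and ETS factors was mostly not called, with 1 of 16 higher and 2 lower in each line. In HT-29 these were ETV5, higher (91 and 195 fragments, 0.85, 0.50 to 1.24), and SPRY1 (22 and 10 fragments, −1.15, −2.61 to −0.23) and EPHA2 (369 and 220 fragments, −0.97, −1.23 to −0.73), lower. In NCM460 they were NF1, an inhibitor of RAS (8 and 34 fragments, interval 0.48 to 2.94), and IER3, which is also in the immediate-early list (542 and 441 fragments, −0.77, −0.96 to −0.59) and ETV5 (68 and 58 fragments, −0.69, −1.23 to −0.18). After the GC trend was subtracted NF1 and IER3 were not called, and ETV5, whose locus is merged with DGKG, was at −1.47 (−2.01 to −0.96).

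Of 40 genes of the MAP kinase cascade compared in HT-29, 8 were called higher and 7 lower, with a median of 0.17, which are shares close to those of all loci. MKNK2, a kinase of eIF4E downstream of ERK, had 214 and 793 fragments (1.65, 1.44 to 1.88), and BRAF had 53 and 169 (1.40, 0.99 to 1.91). MAP3K1 and MAP3K8, kinases at the head of the cascade, had 156 and 50 fragments (−1.81, −2.36 to −1.41) and 41 and 12 fragments (−1.77, −3.07 to −1.05). MKNK2, MAP3K1 and MAP3K8 are also among the genes the study listed from these samples. In NCM460, 12 of 40 were called higher and 9 lower, with a median of −0.11, and after the GC trend was subtracted 5 were higher and 1 lower. MAPK8, the gene of JNK1, had 2 and 20 fragments (interval 0.81 to 5.99) and HRAS had 14 and 4 (−1.95, −4.34 to −0.61), and neither was called after that subtraction. MAP3K11 had 66 and 36 fragments and −1.32 (−1.98 to −0.74), or −0.68 (−1.34 to −0.10) after.

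**Figure D5:**
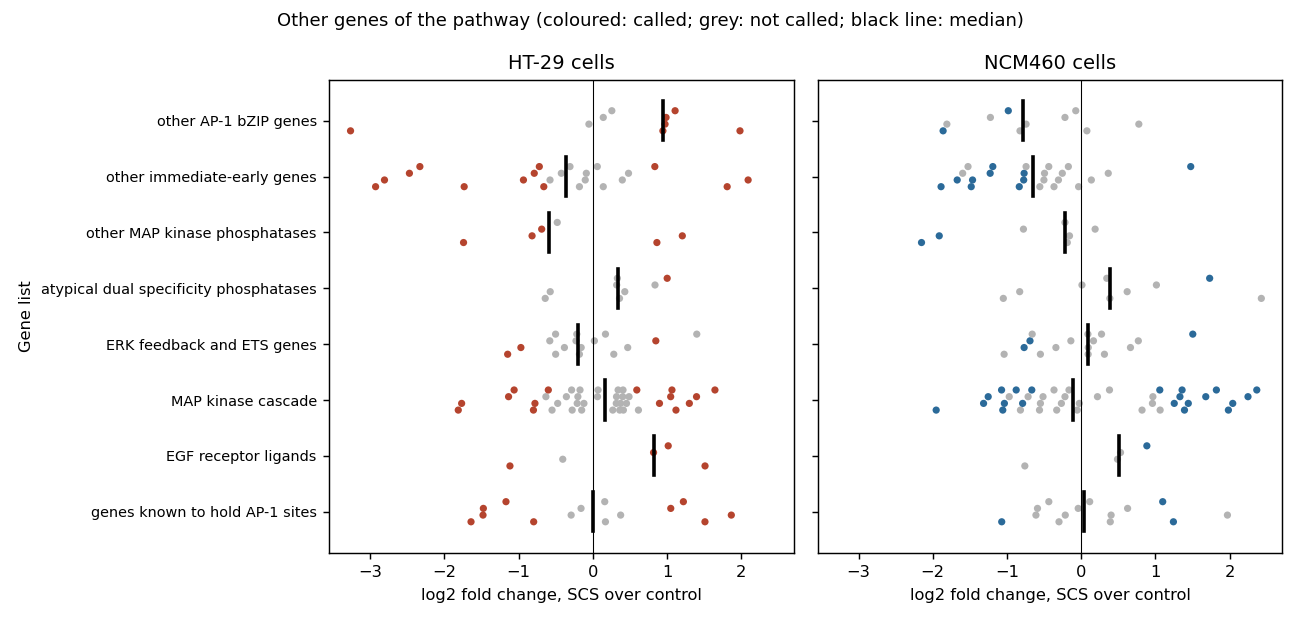
Log2 fold change with SCS of each compared gene of 8 lists in HT-29 (left) and NCM460 (right), coloured where called and grey where not, with the median of each list as a black line. The other AP-1 genes have a median of 0.94 in HT-29 (0.14 in FPKM) and −0.78 in NCM460, and FOSB is the lowest point of its list in both lines.

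The loci most like 3 of the genes over the 4 libraries were found by the distance of log2 CPM centred on its mean, among 7799 loci at 10 CPM or more on average. For FOS these were PAQR4 (distance 0.65), HIST1H2BM (0.79) and FOSB (0.93). For EGR1 they were TRERF1 (0.23), COTL1 (0.24) and the locus of POLD1 (0.27). For DUSP6 they were THOC3 (0.064), PFKM (0.11) and VDAC1 (0.13). All of these loci were chosen by this distance, so their likeness to the gene is not a separate result.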

How the data were processed

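Total RNA of 1 library per condition was sequenced by the authors as paired ends. The submitters' processing notes name bcl2fastq 2.17.1.14, cutadapt 1.9.1, Bowtie2, HTSeq 0.6.1 and hg19, and the study's methods name Cuffdiff, but the coordinates of the table are those of GRCh38. The deposited table had 64962 rows, of which 26 without a gene name were left out (0.00581% to 0.0352% of fragments). Its count columns are a signal, which the authors deposited as fragment counts after scaling each library by a factor, and its other columns are FPKM values the authors deposited. In the signal columns 1 fragment was worth 0.686 (control) and 0.577 (SCS) in HT-29 and 2.04 and 1.33 in NCM460. Division by this gave whole reads (within 0.1) for 99.9% to 100% of values above 0, and for 100% under 200 fragments. Adjacent rows with identical values were merged, which gave 18650 loci, 1812 of them with more than 1 gene. DUSP16 stood on 2 rows, both placed on a patch scaffold of chromosome 12, of which 1 was at 0 in every library and the other was used.

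The design had assumed whole counts, and the recovered fragments were used in their place. Fragments were scaled in R 4.3.3 by edgeR 4.0.16 TMM factors over the 4 libraries (1.24, 1.50, 0.578 and 0.935). Log2 fold changes used a prior count of 2 and were taken for loci at 1 CPM or more on average in a line, with 95% Clopper-Pearson intervals. Within a line no count test could be fitted, since there was 1 library per condition. The shared fit was edgeR's quasi-likelihood test with the cell line as a term and Benjamini-Hochberg adjustment, with DESeq2 1.42.0 as an alternative. It called 4 loci higher and 5 lower. GC content came from GENCODE transcripts for 98.9% of loci, with a lowess span of 0.3. FPKM fold changes were taken as log2(FPKM + 1), which understates the change of low genes. They have no counting interval, so calls in FPKM used the 1.5-fold rule alone. The scripts were tested on simulated data. Named beyond the 10 genes are up to 2 called loci with the largest and 2 with the smallest log2 fold change of each list and line at 5 CPM or more, and the 3 loci nearest to FOS, EGR1 and DUSP6. The genes and lists were chosen with earlier results of these data known. Some genes that this rule names are not reported here.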

Additional observations from a re-analysis of the deposited data

Results flagged for a closer look

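JUND moved in opposite directions in the lines, with counting intervals on opposite sides of 0. Its log2 fold change was 0.83 in HT-29 and −0.41 in NCM460. After the GC trend was subtracted JUND was at 0.81 in HT-29 and 0.33 in NCM460, and with total counts alone at 1.11 and 0.28, so the opposite direction does not hold under these scalings. In NCM460 JUND stayed below 0 with DESeq2 factors (−0.51), the authors' factors (−0.56), thinning (−0.44) and a prior count of 0.5 (−0.41). The same held with the expression trend (−0.09) and in FPKM (−0.62, past 1.5-fold but without an interval). In HT-29 JUND was at 0.59 or above under all 8 alternatives.

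Genes of the lists that were called in opposite directions in the lines were PPP1R15A (0.84 in HT-29 and −1.67 in NCM460), MKNK2 (1.65 and −1.04), DUSP8 (0.86 and −2.15, the latter on 13 and 3 fragments), ETV5 (0.85 and −0.69), and the integrin genes ITGA2 (−1.47 and 1.24) and ITGA6 (−0.80 and 1.10). KLF2, on only 3 and 20 fragments in HT-29, was a further such gene, at 1.81 (0.75 to 4.90) in HT-29 and −1.48 (−2.39 to −0.74) in NCM460. KLF2 was still called lower in NCM460 after the GC trend was subtracted (−0.75, −1.66 to −0.02). With 1 library per condition, the differences between the lines were not tested. After the GC trend was subtracted, ITGA2 (0.18), ITGA6 (0.32) and MKNK2 (−0.34) were not called in NCM460, while PPP1R15A (−1.04), ETV5 (−1.47) and DUSP8 (−1.43, −4.32 to 0.00) were, DUSP8 with an interval that ends at 0 as rounded.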

How the results depend on the processing

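FOS was called lower in both lines under all 8 alternatives per line (DESeq2 factors, total counts, the authors' factors, a prior count of 0.5, thinning, a GC trend, an expression trend and FPKM), and EGR1, DUSP1, DUSP6 and JUND kept their HT-29 calls under all 8. In FPKM a call needed 1.5-fold only, without an interval. In NCM460, EGR1 and JUN lost the call with total counts, the GC trend and the expression trend, DUSP1 and JUNB with the first 2 of these, and FOSL2 with total counts.

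Total counts alone shifted the median of all loci by 0.24 in HT-29 and 0.62 in NCM460. They gave 3148 loci higher and 1115 lower in HT-29, and 3945 and 248 in NCM460, so that lower calls were 26.2% and 5.91% of calls, against 46.9% and 47.3% with TMM. Of the 10 genes, 2 were then called higher in HT-29, and 2 higher and 1 lower in NCM460. FPKM shifted the medians by −0.16 and −0.30. It gave 2118 loci higher and 3100 lower in HT-29, and 2822 higher and 4652 lower in NCM460, so that lower calls were 59.4% and 62.2% of calls. Of the 10 genes, 7 were then called lower in NCM460, among them JUND at −0.62, and 1 was called higher. These FPKM counts used the 1.5-fold rule without an interval, so they are not comparable with the other counts. The authors' factors shifted the NCM460 median by −0.14 and put lower calls at 58.0%, and the expression trend shifted it by −0.13. Thinning left 1317 loci higher in HT-29, where fewer fragments remained. With the GC trend subtracted, 727 loci were higher and 810 lower in NCM460, and 2 of the 10 genes were lower. DESeq2's shared fit called 15 loci higher and 12 lower, and passed EGR1 with a log2 fold change of −1.69. An edgeR fit with the GC trend as an offset, chosen after seeing the data, called 27 higher and 28 lower, FOS at an adjusted p of 1.6e-05 and EGR1 at 0.149. Of 140 list medians recomputed, 4 moved outside their interval, all with total counts. The causes were not tested.

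No paired analysis was possible because each group had 1 library and so no replicate numbers to pair, beyond the cell line term of the shared fit. For the same reason no library was left out. NCM460 intervals are wide because its libraries held fewer nuclear fragments.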

Other observations

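Of the ligands of the EGF receptor, which signals to ERK, 3 of 5 in HT-29 were called higher and 1 lower, and after the GC trend was subtracted 1 was higher and 1 lower. In FPKM 1 was higher and 2 lower. AREG (amphiregulin) had 235 and 793 fragments (log2 fold change 1.51, 1.31 to 1.74), and BTC (betacellulin) had 13 and 34 (1.02, 0.20 to 2.20), which was not called after the GC trend was subtracted. HBEGF was lower, with 51 and 26 fragments and −1.12 (−1.94 to −0.50). In NCM460, 1 of 4 was called higher, EREG (epiregulin), with 53 and 137 fragments and 0.88 (0.43 to 1.38), but at −0.42 (−0.87 to 0.08) after the GC trend was subtracted.

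Of genes known to hold AP-1 sites, 4 of 14 in HT-29 were called higher and 5 lower, with a median of 0.00. VEGFA, the vascular growth factor, had 198 and 856 fragments (1.87, 1.66 to 2.11). CCND1 (cyclin D1) had 178 and 65 fragments (−1.64, −2.12 to −1.27), and MMP7, a matrix protease, had 147 and 60 (−1.48, −1.98 to −1.08). In NCM460, 2 of 14 were called higher (ITGA2 and ITGA6) and 1 lower (TIMP1, 107 and 70 fragments, −1.07, −1.54 to −0.64), with a median of 0.04, or −0.04 without genes at 0 in a library. None of these 3 was called after the GC trend was subtracted.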
